A study of Mus musculus with 24 samples.

Results

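The genes described here are 6 members of the insulin-like growth factor (IGF) and insulin system: the binding protein gene Igfbp4, the receptor genes Igf1r, Insr and Igf2r, and the adaptor genes Irs1 and Irs2. They are 6 of 49585 gene rows of the table, of which 16184 held at least 1 count, and all 6 were matched by symbol. The genes were chosen by family and name at a time when their levels in these cells were known, so their levels and the on-off pattern of Igfbp4 are given as descriptions, with no test. The material is 24 single cells from fetal liver of C57/Bl6J mice at embryonic day 14.5, sorted as burst-forming units-erythroid (BFU-E), the earliest progenitors committed to red cells. Cells bearing mature lineage antigens, Sca-1, CD16/32 or CD41 had been removed with beads before the sort, which used CD117, CD71 and CD24. The bounds of the sort gates are not given. No treatment or mutant was included, the embryos behind the cells are not named, and the 24 cells count as 1 sample, so neither a test nor a standard error is given.

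IGF1 and IGF2 are secreted growth factors that signal through the receptor tyrosine kinase IGF1R, while insulin signals through the related kinase INSR. Both receptors recruit the adaptors IRS1 and IRS2, which pass the signal to PI3K, AKT and mTORC1, and they also feed the RAS and ERK cascade. IGF2R, the cation-independent mannose 6-phosphate receptor, has no kinase: it carries lysosomal enzymes and takes IGF2 into the cell for degradation. IGFBP4 is a secreted protein that binds IGFs and keeps them from their receptors until the protease PAPP-A cleaves it. IGF1 and insulin are long used as supplements in erythroid cultures.

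To show regulatory sequence beside the values, the 250 bases before the RefSeq start (build GRCm38.p6) are printed for Igfbp4, whose on-off pattern is described below, and for Igf2r, which shared a single cell with it. The Igfbp4 window is chr11:99040994-99041243, plus strand, and that of Igf2r is chr17:12769707-12769956, minus strand. Each is written in the direction of transcription, and capitals mark TATAAA and GGGCGG on either strand.
Igfbp4: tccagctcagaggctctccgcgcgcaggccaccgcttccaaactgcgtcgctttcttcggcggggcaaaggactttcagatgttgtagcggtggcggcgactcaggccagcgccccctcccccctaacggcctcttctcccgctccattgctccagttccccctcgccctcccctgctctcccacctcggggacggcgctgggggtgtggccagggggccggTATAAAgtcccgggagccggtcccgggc
Igf2r: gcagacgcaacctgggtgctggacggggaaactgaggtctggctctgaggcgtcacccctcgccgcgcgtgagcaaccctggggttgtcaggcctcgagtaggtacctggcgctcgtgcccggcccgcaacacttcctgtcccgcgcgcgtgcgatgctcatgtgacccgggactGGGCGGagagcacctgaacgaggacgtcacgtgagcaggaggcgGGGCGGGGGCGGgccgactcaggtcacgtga
TATAAA occurred once in the Igfbp4 window, beginning 28 bases before the start, and GGGCGG was not found there. In the Igf2r window GGGCGG occurred 3 times, with 2 of the matches adjoining, and TATAAA did not occur. Of 32536 promoter windows of this length, 12.3% held TATAAA and 33% held GGGCGG on either strand, so both are common. RefSeq windows were matched for 5 of the 6 genes, Insr being the exception. TATAAA was seen in none of the other windows, those of Igf1r, Igf2r, Irs1 and Irs2, while GGGCGG was present in each of these 4. The GATA factor motif AGATAA or TGATAA, searched on both strands, was in none of the 5 windows, against 16.5% of all promoters. These matches describe letters in a window and not sites in use.

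Before the members are described, 6 of the cells need a remark. Total counts ran from 876983 to 2155010 per cell, so that a count of 0 allows up to 1.39 to 3.42 CPM, that is, counts scaled by the total of each cell. In cells 1, 9, 19, 23 and 24, Klf1, a transcription factor that drives globin and red cell membrane genes, stood at 0.810 to 8.12 CPM, against 32.4 to 1008 CPM in the other 19. Gata1, the master regulator of red cell genes, was also at 0 to 2.85 CPM in 4 of these 5 cells, while cell 23 held 886 CPM. Cd34, a surface antigen of stem and early progenitor cells, was detected in exactly these 5 cells, at 156 to 1554 CPM. In Cd34 and Klf1 these 5 cells go against the label of a committed red cell progenitor, while cell 23 held the highest Gata1 of all 24 cells. Cell 10 carried the most hepatocyte transcripts, 1360 CPM over 10 markers. Several values that rest on these cells, but not all, are given with and without them.

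Igfbp4 (ENSMUSG00000017493, GRCm38 chromosome 11, 99041244 to 99054392, plus strand) ranged from 0 to 754 CPM over the cells. The gene is called on or off here by a split of these graded levels at a detection threshold. At 5 counts or more, the threshold for detection used throughout, it was found in 12 of 24 cells (exact binomial 95% interval 29.1% to 70.9%). That interval takes cells as independent draws, though they count as 1 sample here. It covers the drawing of cells only, and no error in the reads. The mean of Igfbp4 was 154 ± 235 CPM (SD over 24 cells), and 128 ± 202 CPM without cell 19, the highest. The 12 positive cells held 754 CPM (cell 19), 728 (cell 9), 556 (cell 23), 373 (cell 1), 358 (cell 3), 240 (cell 24), 208 (cell 6), 179 (cell 20), 160 (cell 11), 97.2 (cell 10), 21.7 (cell 8) and 8.27 CPM (cell 16). The lowest of them, cell 16, had 16 counts, and no cell lay between it and the 12 remaining cells, which had at most 4 counts or 2.38 CPM. In 5 of those 12 no Igfbp4 read was counted, and at 1 count or more Igfbp4 was in 19 of the 24 cells.

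Few genes of this level were so patchy. Among 1351 other genes with a mean CPM within 1.5 times that of Igfbp4, the median gene was detected in 23 of 24 cells, and 6 genes (0.444%) were detected in 12 cells or fewer. On the log2(CPM + 1) scale its variance, taken above the trend with mean level, ranked 12 among 8266 genes detected in at least 6 cells. The cells low in Klf1 set much of that rank. Igfbp4 was detected in 5 of 5 of them, at 240 to 754 CPM, and in 7 of the other 19, at up to 358 CPM. Without the 5 cells the rank was 497 of 7673 genes and the mean 54.8 ± 101 CPM. Over those 19 cells, 14 of 2071 genes of similar level (0.676%) were found in 7 cells or fewer, where the median gene was in 14. The 19 cells are part of the same 24, and the pattern was known when the gene was chosen. These shares and ranks are therefore descriptions and no separate test.

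**Figure D1:**
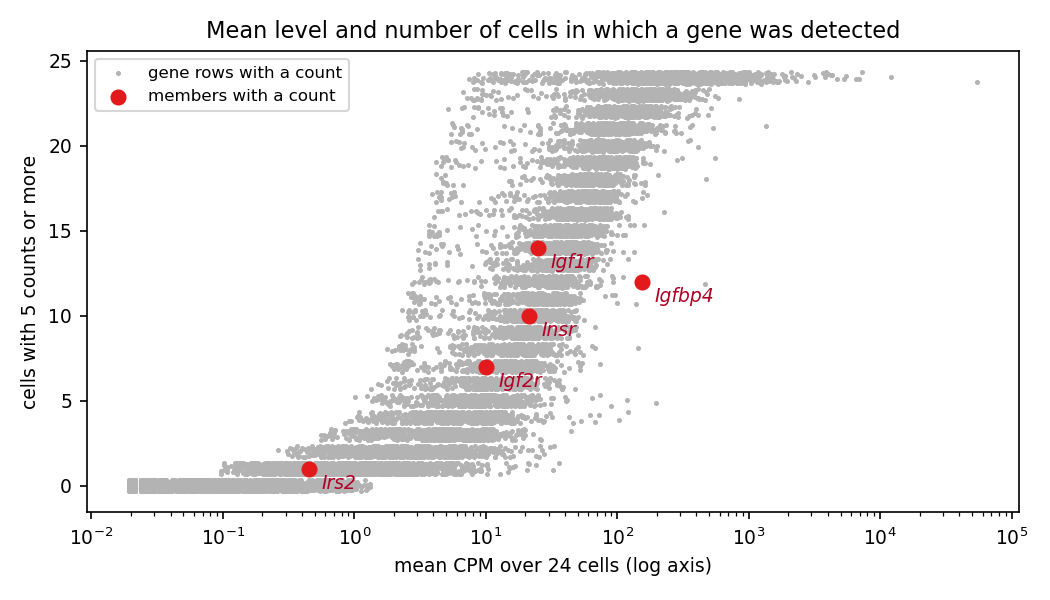
Each grey point is 1 of 16184 gene rows with a count, placed by its mean CPM over 24 cells (horizontal log axis) and the number of cells with 5 counts or more (vertical axis, jittered), and red points are the members with a count. Igfbp4 lies to the right of the main band, at 154 CPM and 12 cells, while Igf1r, Insr, Igf2r and Irs2 lie inside it.

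The signalling receptors were present at low level in many cells. Igf1r, the receptor for IGF1 and IGF2 (ENSMUSG00000005533, chromosome 7, 67952827 to 68233668, plus strand), was detected in 14 of 24 cells at a mean of 25.1 ± 32.0 CPM. Over these 14 cells it ran from 5.22 CPM in cell 17 to 107 CPM in cell 6, with a median of 35.2, and in the other 10 it reached at most 1 count. Cells 6, 23 and 8 were the highest, at 107, 101 and 77.5 CPM, and the remaining 11 positive cells reached at most 50.6 CPM, in cell 16.

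Insr, the insulin receptor (ENSMUSG00000005534, chromosome 8, 3122061 to 3279617, minus strand), was detected in 10 cells at 21.3 ± 34.2 CPM over all 24. The 10 cells held 99.2 CPM (cell 8), 94.6 (cell 23), 81.2 (cell 24), 80.0 (cell 1), 61.2 (cell 9), 33.7 (cell 6), 24.9 (cell 20), 14.9 (cell 14), 14.6 (cell 11) and 4.56 CPM (cell 17). Of the 5 highest cells, 4 were cells low in Klf1. Without the 5 cells low in Klf1, Insr was in 6 of 19 cells at 10.2 ± 23.7 CPM. The A and B splice forms of this receptor, which differ in their affinity for IGF2, cannot be separated in gene counts.

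Either Igf1r or Insr was detected in 18 of the 24 cells and both in 6, close to the 5.83 cells given by the product of their single shares. No receptor kinase of the pair was detected in cells 3, 4, 7, 10, 15 and 19. Levels of different genes can be set side by side only per length: Insr averaged 1.55 ± 2.49 and Igf1r 1.49 ± 1.90 RPKM (CPM divided by the exon length in kb), less than their spread over cells apart, against 34.8 ± 53.3 for Igfbp4.

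Igf2r, the receptor for mannose 6-phosphate and IGF2 (ENSMUSG00000023830, chromosome 17, 12682406 to 12769664, minus strand), is an imprinted gene expressed mainly from the maternal copy in most mouse tissues. It was detected in 7 cells and averaged 10.1 ± 18.3 CPM, or 1.08 ± 1.96 RPKM. The 7 cells held 66.0 CPM (cell 15), 54.5 (cell 21), 33.7 (cell 14), 29.0 (cell 13), 18.9 (cell 17), 17.8 (cell 4) and 9.11 CPM (cell 20). None of the 5 cells low in Klf1 was among them, where Igf2r reached at most 3.42 CPM, against 7 of the other 19 cells. Airn, the long antisense RNA that starts inside Igf2r on the paternal copy, had 0 counts in every cell and shares no exonic base with it. Another mannose 6-phosphate receptor, M6pr, was in all 24 cells at 85.2 ± 43.3 RPKM.

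The insulin receptor substrates were almost missing. Irs1 (ENSMUSG00000055980, chromosome 1, 82233101 to 82291416, minus strand) had 0 counts in all 24 cells, where 3 counts would be 3.42 CPM in the cell of lowest depth. A predicted gene on the opposite strand, Gm9747, overlaps 2822 of its 9144 exonic bases and also had 0 counts. Irs2 (ENSMUSG00000038894, chromosome 8, 10984681 to 11008458, minus strand) had 18 counts, or 8.35 CPM, in cell 18, 3 counts in cell 13, 1 count in cell 21 and 0 in the other 21 cells. The paralogs Irs3 and Irs4 had 0 counts in every cell.

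**Figure D2:**
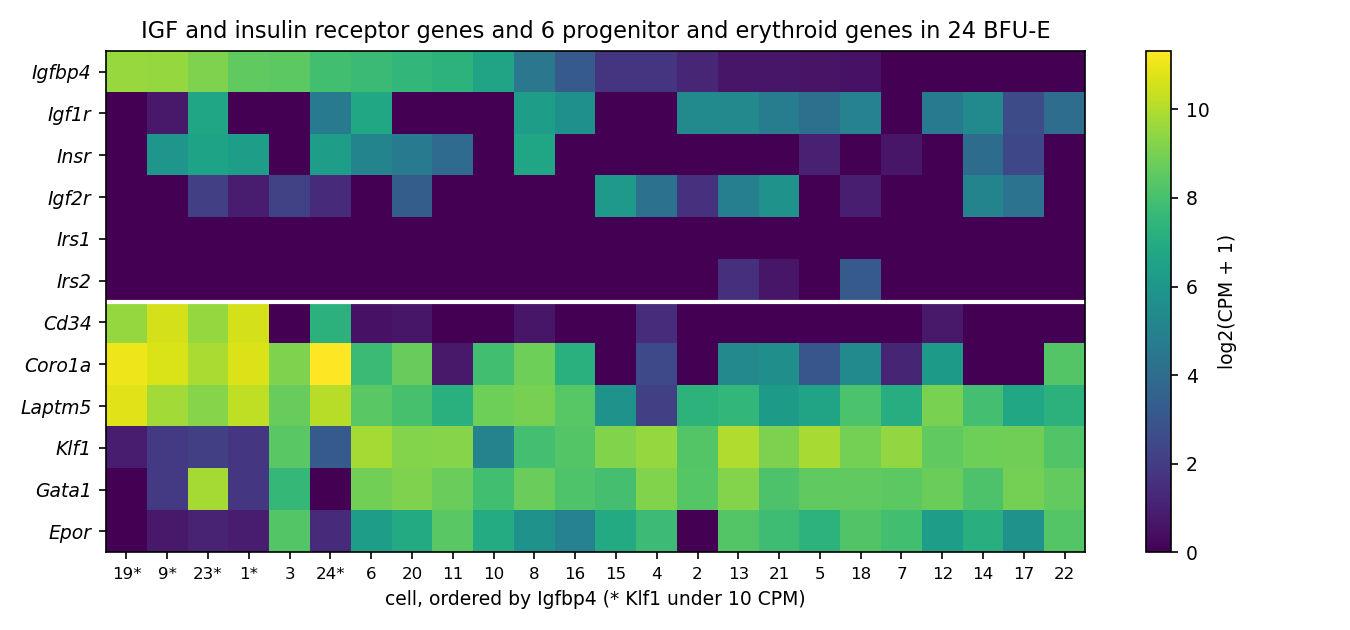
Columns are the 24 cells in order of Igfbp4 level, rows are the 6 members (above the white line) and 6 progenitor and erythroid genes (below it), and colour is log2(CPM + 1). An asterisk marks the 5 cells with Klf1 under 10 CPM, which are the 4 highest cells for Igfbp4 and the sixth.

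Which members were found together was described by counts of cells. Igfbp4 and Insr were both detected in 8 cells, where the product of their shares gives 5; Insr was in 8 of the 12 cells with Igfbp4 and in 2 of the 12 without. Spearman's rho between them was 0.39 over 24 cells and 0.18 over the 19 cells left without those low in Klf1. In those 19 cells Igfbp4 was in 7, Insr in 6 and both in 4. Igfbp4 and Igf2r met in a single cell, cell 20, where the product gives 3.5: Igf2r was in 1 of the 12 cells with Igfbp4 and in 6 of the 12 without. That near-exclusion depends on the threshold, since 11 cells held at least 1 count of each, against a product of 10.3, and rho was -0.16. Igfbp4 and Igf1r shared 5 cells, where the product gives 7, with Igf1r in 5 of the 12 cells with Igfbp4 and 9 of the 12 without (rho -0.15). None of these 3 relations was strong in sparse counts from 24 cells that share a plate, and none is offered as a finding beyond these cells.

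Igfbp4 was spread evenly over the plate and was weakly related to depth. It was detected in 4 of 8 cells in each of the 3 plate columns. Its shared cells with Insr were unevenly placed, with 1, 4 and 3 in columns 1, 2 and 3, as was Insr itself, with 1, 6 and 3. Total counts ran from 876983 to 2049764 in the cells with Igfbp4 and from 1149972 to 2155010 in those without, with a rho of -0.30 between Igfbp4 and depth. The number of genes detected ran from 4767 to 7349 and from 5091 to 6767, with a rho of -0.18. The part of depth in the pattern was not tested.

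**Figure D3:**
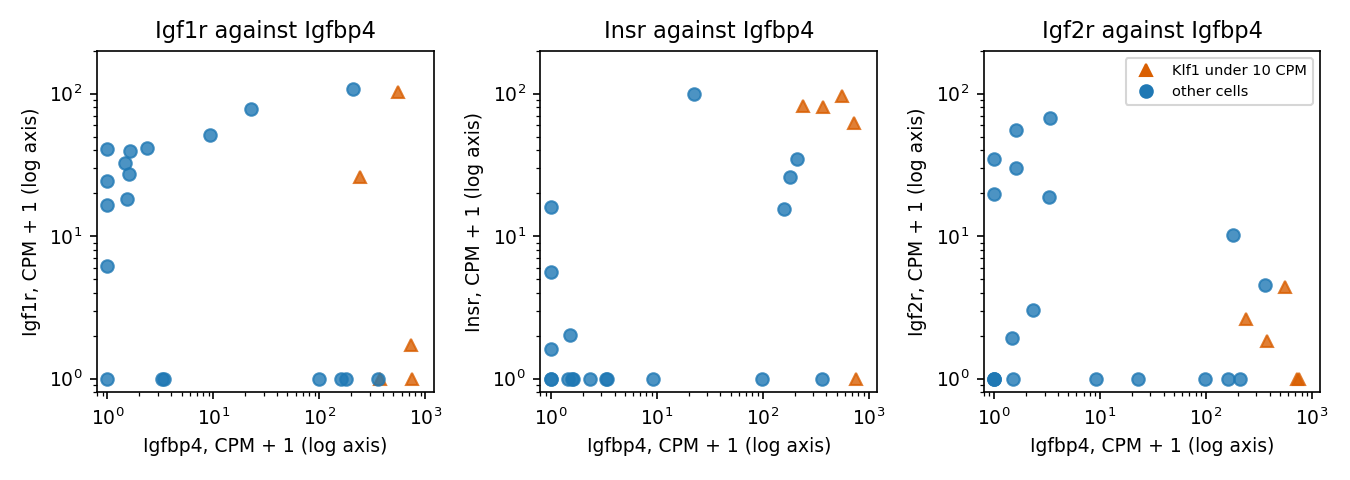
Each point is 1 cell, with Igfbp4 on the horizontal and a receptor gene on the vertical axis, both as CPM + 1 on log axes. Orange triangles are the 5 cells with Klf1 under 10 CPM and blue circles the other 19; Igf2r is above 5 CPM in a single cell with Igfbp4, cell 20.

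Among progenitor and erythroid genes, Klf1, Gata1 and Epor were detected in fewer of the cells with Igfbp4 and Cd34 in more, differences that lay largely in the 5 cells low in Klf1, while Kit, Myb and Myc were detected in all 24 cells and Gata2 in 7 and 8. Klf1 was detected in 8 of the 12 cells with Igfbp4, at 0.810 to 887 CPM over all 12, and in 12 of the 12 without, at 306 to 1008 CPM (rho -0.50). Over the 19 cells at or above 10 CPM of Klf1 that rho was 0.0018. Gata1 was likewise in 8 and 12 cells (rho -0.33, and -0.074 over the 19), but its rho was -0.80, 0.66 and -0.69 within plate columns 1, 2 and 3, so the sign did not hold in column 2. By the same count the erythropoietin receptor gene Epor was in 7 and 11 cells (rho -0.47, and -0.051 over the 19). Cd34 was in 5 and 0 cells, as described above. Kit, the stem cell factor receptor used in the sort, was in all 24, at 84.2 to 465 CPM in the cells with Igfbp4 and 71.4 to 767 CPM in the others (rho 0.093). Myb and Myc, regulators of progenitor growth, gave rho 0.013 and -0.031, and Gata2 -0.12. Over the 19 cells these were 0.36 for Myb, 0.55 for Myc and 0.16 for Gata2, so the sign for Myc and Gata2 depended on the cells low in Klf1. Splitting cells by Igfbp4 uses a measured value of the same cells, so these counts describe joint patterns and are no test.

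Across the transcriptome, the genes most like Igfbp4 were ranked by rho among 5608 named genes detected in at least 12 cells. A rho of at least 0.6 was reached by 27 of these genes (0.481%) and one of at most -0.6 by 43 (0.767%). The genes at either end are extremes of 5608 values over 24 cells of 1 sample. Highest were Tmsb10, which binds actin monomers (0.77), Fam107b (0.74), Etv6, an ETS family repressor needed by blood stem cells (0.74), Rasal3, a regulator of RAS in blood cells (0.73), and Coro1a, an actin regulator of white blood cells (0.72). Lowest were Acss2, which makes acetyl-CoA from acetate in the cytosol and nucleus (-0.79), the aldo-keto reductase gene Akr7a5 (-0.75), the mitochondrial translation factor gene Tsfm (-0.75), Copg1, a subunit of the COPI vesicle coat (-0.75), and Alad, the second enzyme of haem synthesis (-0.75). With total counts, the highest genes gave rhos from -0.45 (Coro1a) to -0.25 (Etv6), beside -0.30 for Igfbp4. The lowest genes gave 0.12 (Akr7a5) to 0.62 (Alad). The part of depth in these rankings was not tested.

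Etv6 and Acss2, an example from each end, also had a large rho among the 19 cells not low in Klf1. Those 19 cells and the plate columns are parts of the same cells that ranked the genes. A large rho within them is therefore not independent of that choice and is no separate test. Etv6 was detected in 12 of 12 cells with Igfbp4, at 8.25 to 183 CPM, and in 4 of 12 without, at 0 to 26.4 CPM. Its rho was 0.72 over the 19 cells without those low in Klf1, and 0.82, 0.89 and 0.80 within plate columns 1, 2 and 3 of 8 cells each. Acss2 was in 4 of 12 cells with Igfbp4, at 0 to 122 CPM, and in all 12 cells without, at 65.9 to 286 CPM. Its rho was -0.67 over the 19 cells and -0.87, -0.72 and -0.86 within the columns. The 4 cells that held both Acss2 and Igfbp4 were 6, 11, 16 and 20, none of them low in Klf1. Akr7a5 stood at -0.74, Copg1 at -0.69 and Tsfm at -0.68 over the 19 cells. In contrast Tmsb10, Rasal3, Fam107b and Coro1a stood at 0.55, 0.52, 0.49 and 0.47 there, and Alad at -0.53.

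**Figure D4:**
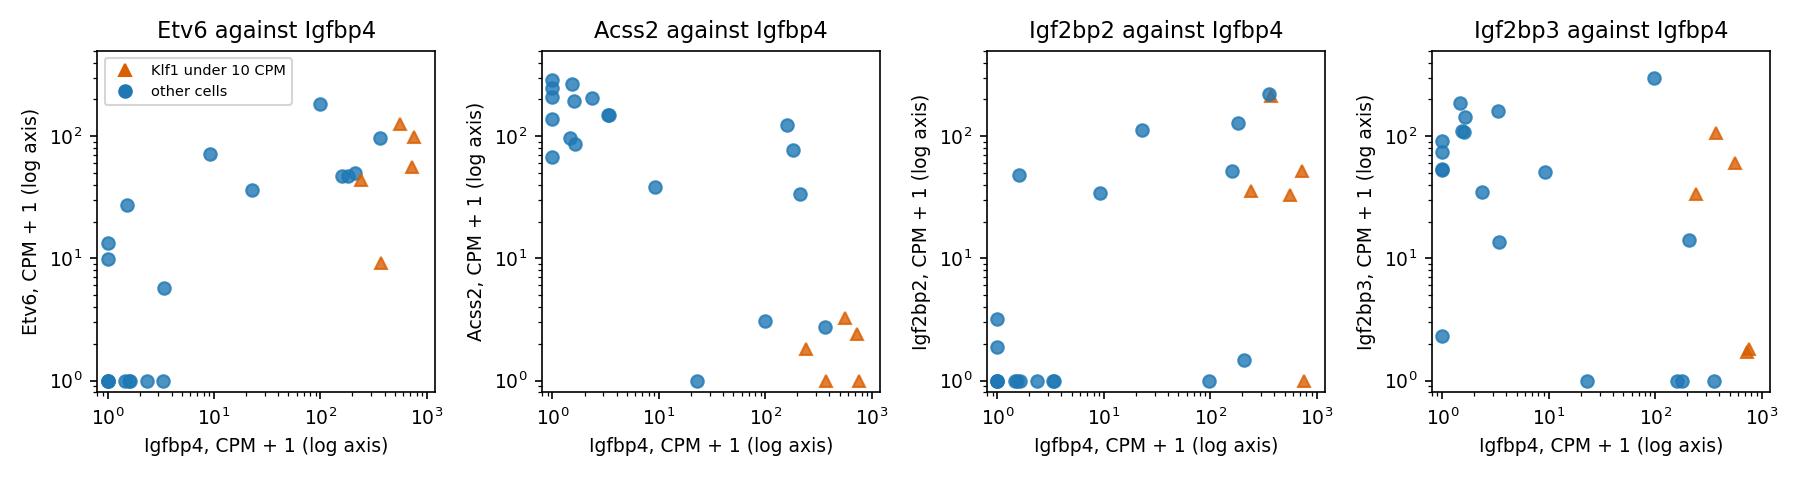
Each point is 1 cell, with Igfbp4 on the horizontal axis and Etv6, Acss2, Igf2bp2 or Igf2bp3 on the vertical axis, as CPM + 1 on log axes; orange triangles are the 5 cells with Klf1 under 10 CPM and blue circles the other 19. Etv6 lies at 8.25 CPM or more in every cell with Igfbp4, and Acss2 at 65.9 CPM or more in every cell without.

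By the same measure the genes most like Igf1r were Herc4 (0.69), Fbxo9 (0.66) and Traip (0.66), which encode ubiquitin ligases or parts of them. Those most like Insr were the cell cycle factor gene E2f1 (0.70), the phosphatase gene Ptpn7 (0.67) and the kinase gene Pkn2 (0.67). Ptpn7 stood at 0.47 over the 19 cells. Those most like Igf2r were Snx14, a sorting nexin (0.65), Nup43, part of the nuclear pore (0.63), and Afg3l1 (0.62). E2f1 was detected in 10 of 10 cells with Insr and in 6 of 14 without, and Nup43 in 7 of 7 cells with Igf2r and in 12 of 17 without. The 3 genes for each member are again extremes, of 5608 or 5609 values.

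The ligands of the system were absent or thin in these cells. Igf1, Ins1 and Ins2 had 0 counts in every cell. Igf2, the fetal growth factor, was detected in 10 cells at 7.60 ± 13.6 CPM, and its highest cells were 10, 24 and 23, at 51.0, 40.6 and 27.4 CPM. Without cell 10, the one rich in hepatocyte transcripts, Igf2 averaged 5.71 ± 10.2 CPM; free RNA or a second cell as the origin of its Igf2 was not tested. Igf2 was found in 5 cells with and 5 cells without Igfbp4. Reads at this locus are uncertain. In the annotation used here, Gm49394 shares 3596 exonic bases with Igf2 and Igf2os shares 98. No count was available for Gm49394, and Igf2os had 0 counts in every cell.

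Igfbp4 was the sole binding protein gene found in more than 2 cells. Of the 12 listed binding proteins and partners, 7 were detected in no cell: Igfbp2, Igfbp3, Igfbp6, Igfals, Stc1, Pappa, whose product cleaves IGFBP4, and its paralog Pappa2. Igfbp7 was in 2 cells, both with Igfbp4, at up to 191 CPM in cell 24, and Igfbp1 and Igfbp5 were in 1 cell each, at 3.10 and 3.56 CPM. Stc2, whose product inhibits pappalysin, was in 4 cells at 4.55 ± 10.6 CPM.

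Detection of the downstream signalling genes varied between the lists. Of the 117 listed genes of the system, 97 held a count. Over all 117, 52 reached detection in 12 cells or more and 21 reached it nowhere, with a median of 11 cells. The background is limited to the 16184 rows with a count, predicted models and pseudogenes included. Of these rows 36.8% were detected in at least 12 cells, and the median row was in 6. Of 14 receptor adaptors 6 were so detected, led per length by Grb2, which links receptors to RAS, at 22.8 ± 13.5, Crk at 20.1 ± 17.8 and Shc1 at 13.8 ± 11.9 RPKM. Grb10, an imprinted adaptor that restrains both receptor kinases, was in 20 cells at 11.8 ± 8.07. Of 19 genes of PI3K and AKT signalling 8 were so detected, led by the kinase genes Akt1 at 17.9 ± 15.2 and Pik3cd at 16.7 ± 24.1 and the regulatory subunit gene Pik3r2 at 15 ± 15.6, while Pik3r3, another regulatory subunit gene, was in no cell.

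Of 14 genes of the mTORC1 branch 9 were so detected, with the ribosomal protein gene Rps6 at 380 ± 55.5, Eif4ebp1, a translation repressor that mTORC1 inactivates, at 98.3 ± 54.5, and the mTORC1 activator gene Rheb at 18.9 ± 8.90 RPKM. Rps6 shares sequence with processed copies, so its value is uncertain. Of 14 RAS and ERK genes 8 were so detected, among them the kinase gene Map2k2 at 41.6 ± 21.4 and the GTPase gene Nras at 41.1 ± 26.8, while Mapk3 was in 2 cells. Among 13 negative regulators 3 were, Ptpn2 at 31.8 ± 21.4, Nedd4 at 28.7 ± 12.8 and Ptpn1 at 11.8 ± 9.50, the last a phosphatase of the insulin receptor. Eif4ebp1 had the rho with Igfbp4 largest in size of all the listed genes, -0.57 (-0.47 over the 19 cells), so it is an extreme of the lists. Its range in the cells with Igfbp4, 73.0 to 254 CPM, lay inside that in the cells without, 42.0 to 507 CPM.

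The mannose 6-phosphate route, in which IGF2R acts, was the best covered of the lists, with 13 of 18 genes in at least 12 cells. After M6pr came the lysosomal protease gene Ctsd at 75.0 ± 47.0 and the hexosaminidase gene Hexa at 65.9 ± 52.8 RPKM. Igf2r itself was far thinner, at 1.08 ± 1.96. Its rho with M6pr was 0.14, and -0.048 over the 19 cells.

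**Figure D5:**
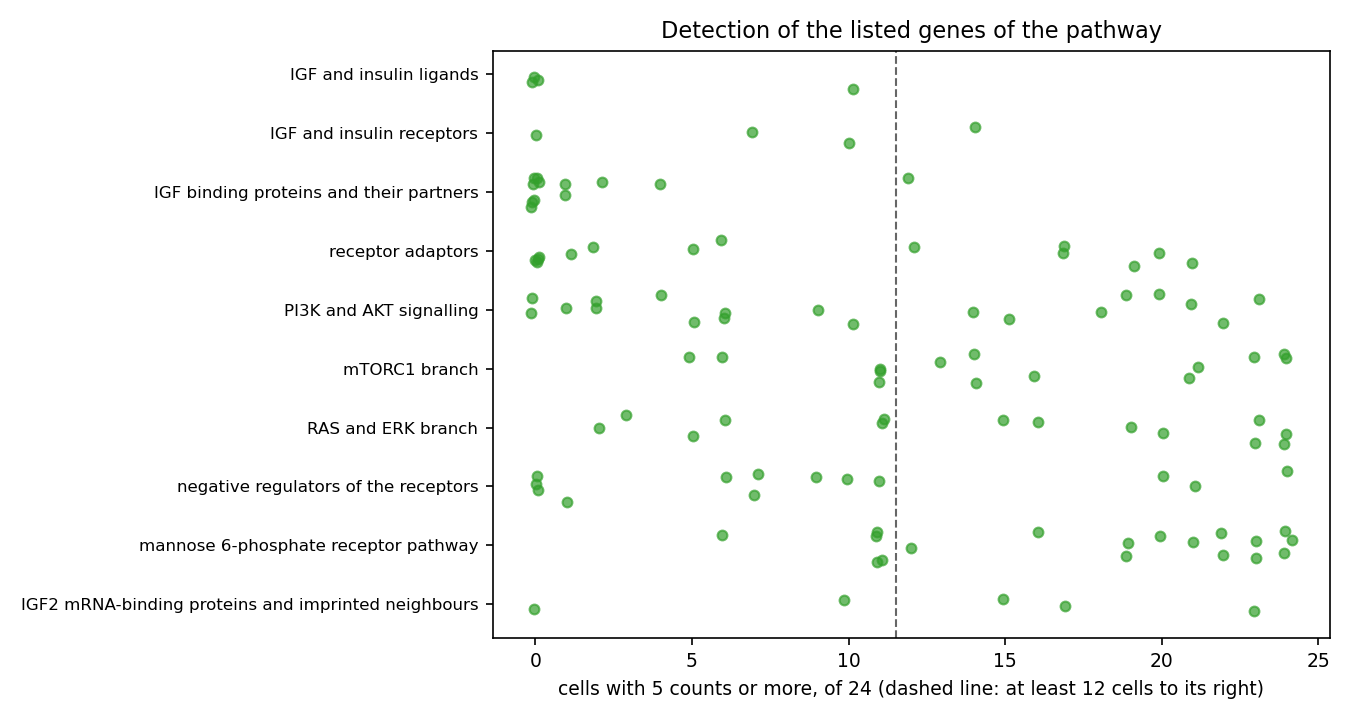
Each point is a gene of the named list, placed by the number of cells with 5 counts or more, with jitter; the dashed line separates genes in at least 12 cells. Ligands, receptors and binding proteins lie mostly to its left, and 13 of 18 genes of the mannose 6-phosphate route lie to its right.

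The IGF2 mRNA-binding proteins bind the Igf2 message and many others and are typical of fetal cells. Their rhos with Igfbp4 differed in sign, but over all cells none reached 0.6 in size. Igf2bp2 was named after its values were seen, so the difference between these genes is a description and no test. Igf2bp1 was in 23 cells at 81.5 ± 56.2 CPM and gave a rho of 0.13. Igf2bp2 was in 9 of the 12 cells with Igfbp4, at 0 to 219 CPM, and in 1 of the 12 without, cell 21, at 46.7 CPM (rho 0.52, and 0.52 over the 19 cells without those low in Klf1). Igf2bp3 was in 6 of the 12 cells with Igfbp4, at 0 to 298 CPM, and in 11 of the 12 without, at 1.30 to 185 CPM (rho -0.42, and -0.44 over the 19 cells). Within plate columns 1, 2 and 3 the rho of Igf2bp2 was 0.15, 0.77 and 0.62 and that of Igf2bp3 -0.11, -0.27 and -0.81, so neither was strong in column 1. H19, the imprinted RNA next to Igf2, was in 15 cells at 14.4 ± 19.8 CPM.

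Markers of other cell types moved with Igfbp4 in part, given here as the summed CPM of each list in the 12 cells with Igfbp4 and then in the 12 without. Endothelial markers summed to 132 to 927 and 68.3 to 278 CPM (rho 0.74, and 0.56 over the 19 cells without those low in Klf1). Of those 10 markers Egfl7 was in 11 and 11 cells, Eng in 10 and 4, Pecam1 in 7 and 2, Tek in 2 and 1, Flt1 in 1 and 0 and Stab2 in 0 and 1. Tek reached 135 CPM in cell 23, Flt1 69.0 CPM in cell 24 and Stab2 31.3 CPM in cell 22, and Cdh5, Kdr, Emcn and Lyve1 had 0 counts in every cell. Myeloid markers summed to 2.07 to 9102 and 0 to 195 CPM (rho 0.60, and 0.25 over the 19), with Elane, Cebpe and Ly6c2 at 0 counts throughout and cell 1 the highest. Lymphoid markers summed to 0 to 3717 and 0 to 8.63 CPM (rho 0.15, and -0.41 over the 19). Their maximum was in cell 19, the highest cell for Igfbp4, where Ighm, Flt3, Cd79b, Rag1 and Il7r stood at 2068, 975, 261, 245 and 169 CPM. Cd79b was detected in 5 cells and Il7r in 1, and Cd3e, Cd79a, Dntt and Cd7 had 0 counts in all 24.

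Hepatocyte markers summed to 8.80 to 1360 and 3.92 to 52.9 CPM (rho 0.32, 0.065 over the 19 and 0.32 without cell 10), with the maximum in cell 10. Stromal markers reached 106 and 98.7 CPM and macrophage markers 462 and 116 CPM, with 7 of 10 genes of each list at 0 counts throughout, among them Pdgfra, Dcn and Cxcl12, and Adgre1 and C1qa. Megakaryocyte markers gave a rho of -0.045, mast cell and basophil markers 0.14, erythroid maturation genes -0.50, S phase genes -0.058 and G2 and M phase genes -0.37. Over the 19 cells erythroid maturation genes stood at -0.14 and G2 and M phase genes at -0.13. Their part in the level of Igfbp4 was not tested. For Igf1r, Insr and Igf2r, only the rhos largest in size over all these lists are given, so they are extremes. Igf2r gave a rho of -0.53 with hepatocyte markers (-0.50 without cell 10). Igf1r gave 0.50 with the 12 G2 and M phase genes (0.36 over the 19). Next in size was Insr with endothelial markers, at 0.40.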

How the data were processed

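The authors deposited 1 table of unnormalised gene counts for 24 Smart-seq2 libraries, 1 per sorted cell. Per the submitters' processing notes, STAR 2.4, featureCounts and build GRCm38 were used; which annotation, counting options or cell filters applied is not given in the sources used here. Libraries were not stranded, per the labels' protocols, so overlapping antisense genes cannot be told apart. PCR copies carry no molecular identifiers, so floors cover counting error only, and the floor of a 0 is 3 counts. The binomial intervals cover the drawing of cells only.

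Identifiers were matched to symbols in GENCODE M21 (GRCm38; 49326 of 49585 rows), which gave coordinates and merged exon lengths. CPM is the count over the sum of all gene rows in that cell, times 1e6; for comparing genes it was divided by exon length in kb (RPKM). A gene was detected at 5 counts. Spearman's rho was taken on CPM over cells, with no p. The variance trend was a lowess fit with a span of 0.3 on log2(CPM + 1). Python 3.11.15, scipy 1.17.1 and statsmodels 0.14.6 were used. The rho ranking and variance trend were run on simulated data. These held strong planted effects, only genes detected in at least 12 cells and no added on-off pattern. That check therefore says little about patchy genes such as Igfbp4.

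The members, pathway lists, marker lists and naming rule were chosen with earlier results of these data known. The rule names the members, the 3 highest genes per length of each list, a set of progenitor and erythroid genes, and the 5 genes at each end of the rho with Igfbp4 (3 at the top for each other member); pseudogenes and predicted models were passed over. A few genes of the lists are counted in the totals but not reported here by name. Further genes, such as Igf2bp2, Grb10, Rag1 and those found in few cells, were named after their values were seen, as was the threshold of 10 CPM for Klf1. Columns of the plate are read from the well names. Alternatives tried were other detection thresholds, thinning every cell to 876983 counts, other totals and size factors, leaving out each cell, and leaving out cell 10 or the 5 cells low in Klf1.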

Additional observations from a re-analysis of the deposited data

How the results depend on the processing

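Values with no test were compared with the binomial interval of a share, the SD over cells of a mean, or 1.5 times a count. The SD over cells exceeds the mean of each expressed member, so for means it says little: of 162 alternatives 3 moved a mean over 1.5 times, to 54.8 CPM for Igfbp4 and 10.2 CPM for Insr without the 5 cells low in Klf1, and to 0.106 CPM for Irs2 without cell 18. Counts of cells stayed within the interval in 33 of 36 cases for single members and 38 of 48 for pairs. These intervals are wide and the alternatives reuse the same cells, so staying inside them also says little. At 1 count or more Igfbp4 was in 19 cells and Igf2r in 13, and Igfbp4 shared 11 cells with Igf1r and 11 with Igf2r; at 10 CPM Irs2 was in 0 cells. Within plate columns of 8 cells, column 1 held 1 cell with both Igfbp4 and Insr, Igfbp4 and Igf2r met in 0 cells of columns 1 and 3, Igf1r and Insr in 0 cells of column 1 and 4 of column 2, and Insr and Igf2r in 3 cells of column 2 and 0 of columns 1 and 3. The variance rank of Igfbp4 ran from 9 to 21 when each cell was left out, with 21 without cell 9, and was 497 without the 5 cells low in Klf1, an alternative chosen after seeing the data. Without those cells the rho with Klf1 changed sign, to 0.0018, partly by construction since Klf1 chose them. The sign also changed for the rho of Igfbp4 with macrophage (-0.26), megakaryocyte (0.074) and lymphoid markers (-0.41), Myc (0.55) and Gata2 (0.16), and of Igf2r with M6pr (-0.048); the cause was not tested. Genes in at least 12 cells numbered 1 of the ligands and 3 of the receptors at 1 count or more, and 1 and 3 when 6 cells sufficed; for negative regulators these were 5 and 9. Thinning every cell to the lowest total moved no count outside its interval. No paired analysis was possible because all cells belong to 1 group. The 5 counts needed for detection were 2.32 to 5.70 CPM, so levels below that are limited by depth.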
